A study of Schizosaccharomyces pombe with 9 samples.

Results

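The small nucleolar RNAs (snoRNAs) of the fission yeast Schizosaccharomyces pombe were followed in 9 RNA-seq libraries of poly(A)+ RNA from 3 strains. Every snoRNA identifier with a sum of at least 20 counts over the 9 libraries was taken. This gave 37 of the 53 snoRNA identifiers in the deposited count table, which lists 6986 identifiers in all. The aps1 deletion strain (replicates 1, 2 and 3) lacks Aps1, a Nudix hydrolase that breaks down inositol pyrophosphates. The asp1-D333A strain (replicates 1, 2 and 3) carries a kinase-dead allele of Asp1, the enzyme that makes inositol pyrophosphates, and the wild type (WT, replicates 4, 5 and 6) is the strain both are set against. No further allele or agent is named for any of the strains. All libraries came from vegetative log phase cultures in YES, a rich yeast extract medium, at 30 °C. Each group is 1 lab strain and nothing states that its libraries came from separate cultures, so the p-values measure only the spread between these libraries, which may be technical. The study's question, by its title, was how inositol pyrophosphates act on phosphate homeostasis through RNA 3′ processing and the termination of transcription.

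snoRNAs work in the nucleolus as the guide RNAs of small ribonucleoprotein particles. Box C/D snoRNAs carry a C box near the 5′ end and a D box (CTGA in DNA letters) near the 3′ end and guide ribose methylation of ribosomal RNA. Box H/ACA snoRNAs end shortly after an ACA triplet and guide the conversion of uridine to pseudouridine, and a few members of each class act instead in cleavage of the ribosomal RNA precursor. In yeasts, RNA polymerase II makes most of them from genes of their own or inside the introns of other genes. Their 3′ ends are formed by transcription termination and trimming by the nuclear exosome, and the mature RNAs have no poly(A) tail. The libraries were selected for poly(A), so the values are levels of snoRNA sequence in poly(A)+ RNA and not levels of mature snoRNA.

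The sequences of the 7 snoRNAs on which the results turn most are printed here from RefSeq (assembly ASM294v3), matched by identifier and read on the strand of the gene. The first 4 are box H/ACA snoRNAs, with the terminal ACA in capitals. sno12 has a large difference between asp1-D333A and WT and a high level, snR3 has the largest fitted difference, snR36 has the largest difference between the mutants, and snR95 is low in the aps1 deletion. The last 3 have box C/D letters, with TGATGA and CTGA in capitals. snoR39b lies in an intron, snoU14 is the snoRNA that was lower in asp1-D333A, and snoZ16 was higher in both mutants. The genes of sno12 (chromosome III), snoU14 (II) and snoZ16 (I) are on the plus strand, and those of snR3, snR36, snR95 and snoR39b (all on chromosome II) are on the minus strand.
sno12: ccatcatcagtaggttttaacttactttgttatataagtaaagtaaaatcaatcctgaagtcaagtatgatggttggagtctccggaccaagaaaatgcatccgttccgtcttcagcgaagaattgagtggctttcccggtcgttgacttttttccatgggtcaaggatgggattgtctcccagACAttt
snR3: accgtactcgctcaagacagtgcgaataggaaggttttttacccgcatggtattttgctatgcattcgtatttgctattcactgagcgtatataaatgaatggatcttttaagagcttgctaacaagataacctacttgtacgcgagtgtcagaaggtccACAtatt
snR36: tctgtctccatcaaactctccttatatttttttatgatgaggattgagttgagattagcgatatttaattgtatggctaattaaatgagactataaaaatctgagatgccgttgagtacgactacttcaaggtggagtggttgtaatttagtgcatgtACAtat
snR95: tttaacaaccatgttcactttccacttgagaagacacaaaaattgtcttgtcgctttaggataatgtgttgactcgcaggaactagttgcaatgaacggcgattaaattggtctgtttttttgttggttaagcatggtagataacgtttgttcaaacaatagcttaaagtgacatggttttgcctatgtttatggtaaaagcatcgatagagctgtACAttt
snoR39b: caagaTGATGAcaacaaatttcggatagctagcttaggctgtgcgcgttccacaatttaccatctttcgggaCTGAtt
snoU14: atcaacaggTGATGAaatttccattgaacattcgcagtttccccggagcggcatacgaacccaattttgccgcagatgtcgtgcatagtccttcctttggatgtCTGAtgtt
snoZ16: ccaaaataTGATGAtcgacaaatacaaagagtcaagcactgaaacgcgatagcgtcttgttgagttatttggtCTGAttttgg

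RefSeq annotates 15 of the 37 snoRNAs as box H/ACA. A further 20 had CTGA in the last 15 bases and are called CTGA-end snoRNAs here. The other 2 are snR30, the yeast counterpart of the vertebrate box H/ACA RNA U17, and snoR02. TGATGA in the first 15 bases, searched on the sense strand, was found in 13 of the 37 (35.14%). Among 12553 other annotated genes it was found in 29 (0.23%). On the opposite strand it was found in 1 of the 37 (2.70%) and 57 of the others (0.45%). The others leave out all snoRNA identifiers, but SPNCRNA.1483 and SPNCRNA.1650, which RefSeq types as snoRNA, remain among them. CTGA in the last 15 bases stood in 22 of the 37 on the sense strand (59.46%) and in 403 of the others (3.21%), and on the opposite strand in 1 of the 37 (2.70%) and 432 of the others (3.44%). ACA in the last 8 bases stood in 13 of the 37 on the sense strand (35.14%) and in 1258 of the others (10.02%), and on the opposite strand in 2 of the 37 (5.41%) and 1257 of the others (10.01%). The most similar pair of the 37 (snoR54 and snoR47) had 60.4% identity, so near-identical copies that could exchange reads were not found among them. By the annotation, 8 of the 37 lie in an intron of a listed gene on the same strand, and another 8 lie opposite an exon of a listed feature. None of the 37 lies inside a listed exon on its own strand.

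Library totals ran between 18244492 and 22999732 counts. The targeted gene aps1 had 224, 137 and 155 counts in the aps1 deletion, 1827, 2073 and 2131 counts in asp1-D333A, and 2634, 2537 and 2516 in WT. A count cannot test the asp1-D333A allele, which is a substitution. asp1-D333A replicate 3 stood apart from its fellows: the chi-square per gene between libraries was 60.5 against replicate 1 and 73.3 against replicate 2, while every other pair within a group had between 4.27 and 20.1. The sums, the class counts and the members that moved most with that library are given with and without it.

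In asp1-D333A the 37 snoRNAs together took a larger share of the reads than in WT, and in the aps1 deletion a slightly smaller one. The smaller share in the aps1 deletion was not that of most single snoRNAs, as given below. Shares of reads do not give amounts per cell. The 37 together had 86.3, 84.5 and 81.9 CPM (counts-per-million, here of the unscaled library total) in the aps1 deletion, 208.6, 208.3 and 175.0 CPM in asp1-D333A, and 92.8, 89.2 and 90.1 in WT. The 3 groups did not overlap. The mean was 84.2 ± 2.21 CPM in the aps1 deletion, 197 ± 19.3 in asp1-D333A and 90.7 ± 1.89 in WT (SD, n = 3 each). The ratio to WT was 2.18 for asp1-D333A and 0.929 for the aps1 deletion. The ratio of the aps1 deletion to asp1-D333A was 0.427. The exact two-sided permutation test over libraries gave p = 0.1 for each of these 3 pairs, which is the smallest p that 3 against 3 libraries allow. Without asp1-D333A replicate 3, the log2 ratio of asp1-D333A to WT was 1.20, against 1.12 with it.

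**Figure D1:**
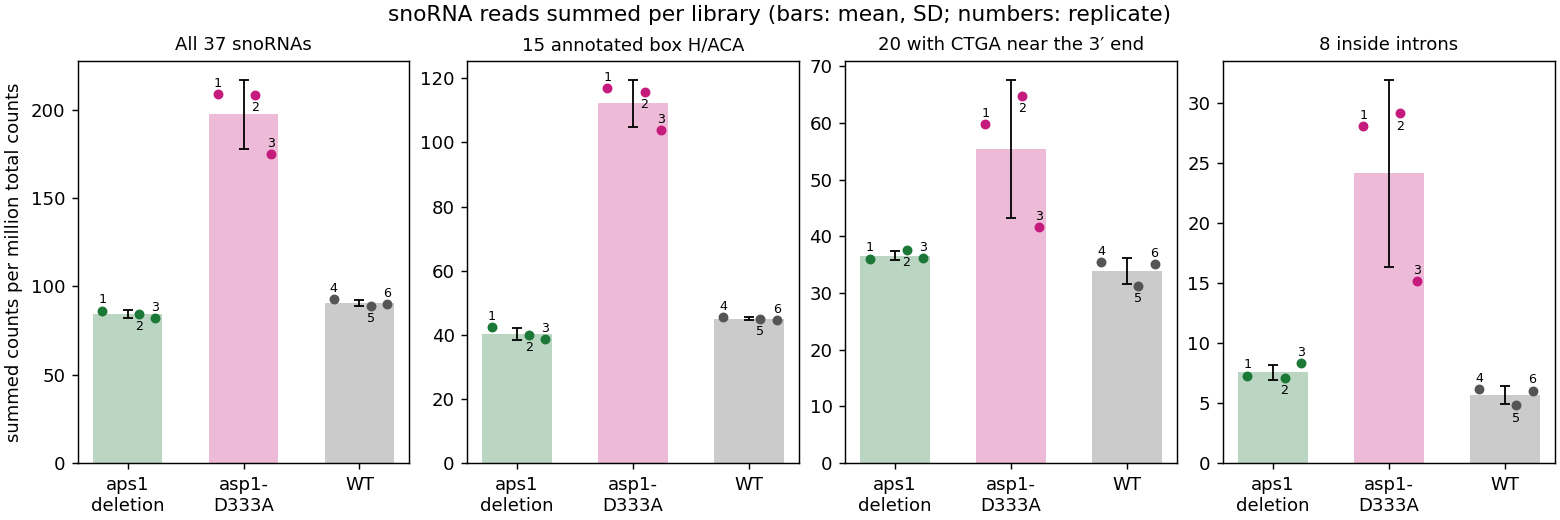
Summed CPM of snoRNAs (vertical axis, linear from 0) in each library of the aps1 deletion, asp1-D333A and WT, for all 37 and for 3 subsets; bars are group means, whiskers are SD, and the digits are replicate numbers. The asp1-D333A libraries lie above WT in every panel, and asp1-D333A replicate 3 is the lowest of its group in each, with 15.2 against 28.1 and 29.1 CPM for the snoRNAs inside introns.

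Both classes had larger sums in asp1-D333A, with a different split among its libraries. The 15 box H/ACA snoRNAs summed to 42.3, 40.0 and 38.6 CPM in the aps1 deletion, 116.9, 115.8 and 103.9 CPM in asp1-D333A, and 45.5, 45.0 and 44.6 in WT. The 20 CTGA-end snoRNAs summed to 36.1, 37.6 and 36.2 in the aps1 deletion, 59.8, 64.7 and 41.7 CPM in asp1-D333A, and 35.4, 31.3 and 35.1 in WT. The groups did not overlap in either class, and the exact permutation p was 0.1 in each pair, the smallest possible. One snoRNA weighs heavily in the second sum: without snoU14 it was 19.5, 20.1 and 21.6 in the aps1 deletion, 51.1, 54.7 and 33.0 CPM in asp1-D333A, and 19.0, 16.3 and 16.9 in WT. The 8 snoRNAs in introns, all with a CTGA end, summed to 7.29, 7.08 and 8.30 in the aps1 deletion, 28.1, 29.1 and 15.2 CPM in asp1-D333A, and 6.19, 4.81 and 6.04 in WT. asp1-D333A replicate 3 had a median of 0.868 times the mean of replicates 1 and 2 over the 14 tested box H/ACA snoRNAs and was the lowest of its group for 8 of them. Over the 16 tested CTGA-end snoRNAs the median was 0.562, and that library was the lowest for 15. Over replicates 1 and 2 alone, the ratio of asp1-D333A to WT was 2.58 for the box H/ACA sum, against 2.49 with all 3 libraries, 1.83 for the CTGA-end sum, against 1.63, and 5.03 for the intron sum, against 4.25.

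The test used for single features was the quasi-likelihood F test of edgeR. Its p-values were adjusted by the method of Benjamini and Hochberg over the 6147 features that passed a filter on low counts, and a call means an adjusted p under 0.05. Levels of single snoRNAs are CPM after edgeR's scaling, and differences are log2 fold changes with a standard error (SE). Of the 37 snoRNAs, 32 passed the filter. For 7 of these, asp1-D333A was the only strain whose 3 libraries all reached the cutoff: snR3, snR42, snR93, snR98, snoR47, snoR69 and snoU24b. The filter asks for any 3 of the 9 libraries. snR42 also reached the cutoff in aps1 deletion replicate 1 and WT replicates 5 and 6, so its test did not depend on asp1-D333A. snR98 was above it in aps1 deletion replicate 1 and WT replicate 6 and at it in WT replicate 5, so its case is at the edge. The others were tested only because they were high in asp1-D333A. For 24 the cutoff was reached in all WT libraries.

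In asp1-D333A, 26 of the 32 tested snoRNAs were called higher than WT and 1 was called lower, where 30.3% of all features tested were called higher and 30.8% lower. Of the 26, 24 were at least 2-fold higher, against 6.28% of all features. The median log2 fold change of the 32 was 1.52, with quartiles of 1.04 and 2.61, and that of all features was 0.01. Among the 24 that reached the cutoff in all WT libraries, 19 were called higher. Without asp1-D333A replicate 3, 27 of 33 tested were called higher and 1 lower, with a median of 1.63. When every feature with a sum of 20 counts was tested instead, so that all 37 entered, 27 were called higher and 2 lower, where 29.3% and 30.0% of the 6343 features were. The CPM of all 3 asp1-D333A libraries lay above all 3 WT libraries for 26 of the 37, against 32.0% of all features, and below them for 4, against 33.7%. Of 1087 other tested noncoding features with an SPNCRNA identifier, 462 were called higher and 121 lower, with a median of 0.32.

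By class, 13 of the 14 tested box H/ACA snoRNAs were called higher in asp1-D333A and none lower, with a median log2 fold change of 2.08. Of the 16 CTGA-end snoRNAs, 11 were called higher and 1 lower, with a median of 1.18. The 7 tested snoRNAs in introns had 6 called higher and a median of 1.58, and the 9 CTGA-end snoRNAs outside introns had 5 called higher, 1 lower and a median of 1.03. Among those that reached the cutoff in all WT libraries, 9 of 10 box H/ACA snoRNAs were called higher, with a median of 1.77, and 8 of 12 CTGA-end snoRNAs were called higher and 1 lower, with a median of 1.10. In the same set, 4 of 4 in introns were called higher, and 4 of 8 CTGA-end snoRNAs outside introns were called higher and 1 lower, with a median of 0.76. Without asp1-D333A replicate 3 the median was 2.13 for box H/ACA (13 of 15 called higher), 1.32 for the CTGA end (12 of 16) and 1.86 in introns (6 of 7). These restrictions by class were chosen after the data were seen. The difference between the classes was not tested. Across the 32 tested snoRNAs the change in asp1-D333A had a Pearson r of 0.00 with length and -0.09 with GC content (Spearman 0.03 and -0.05). With the mean level in WT it had a Pearson r of -0.54 and a Spearman rho of -0.61. The WT libraries enter both axes of that last relation, and the filter let in snoRNAs low in WT only where they were high elsewhere, so it is a description. All points share the same libraries.

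**Figure D2:**
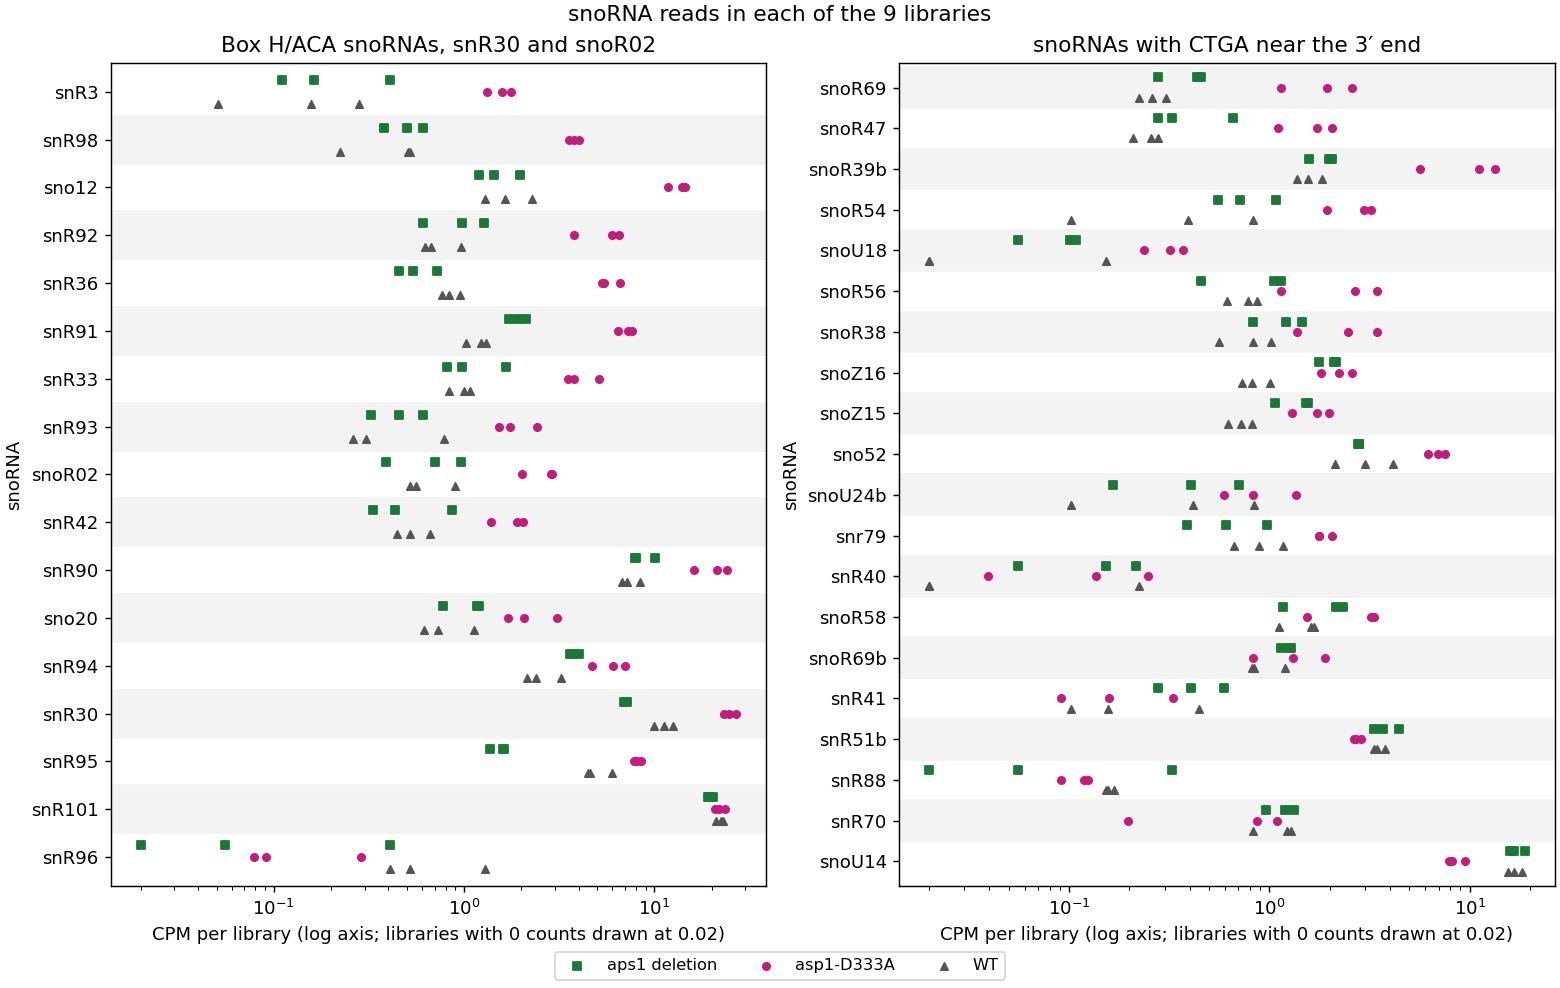
CPM of each of the 37 snoRNAs (horizontal log axis, with libraries at 0 counts drawn at 0.02) in the 3 libraries of the aps1 deletion (squares), asp1-D333A (circles) and WT (triangles), ordered by the difference between asp1-D333A and WT within each panel. For sno12 the asp1-D333A libraries sit between 11.8 and 14.4 CPM, above all others, while for snoU14 they sit between 7.89 and 9.43 CPM, below all others.

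The box H/ACA snoRNA sno12 showed the pattern at high counts. It had 1.98, 1.44 and 1.19 CPM in the aps1 deletion, 14.4, 14.0 and 11.8 CPM in asp1-D333A, and 1.28, 1.63 and 2.29 CPM in WT. The asp1-D333A libraries were far above the other 6, which overlapped. Its level was 7.67-fold higher in asp1-D333A than in WT (log2 fold change 2.94, SE 0.21, edgeR adjusted p = 1.7e-07). The aps1 deletion value was -0.17 (SE 0.25, adjusted p = 0.68).

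The 2 box H/ACA snoRNAs with the largest fitted values, snR98 and snR3, had few reads in WT. snR3 passed the filter only through the asp1-D333A libraries, and snR98 stood at the edge of the filter without them. Their p-values are read as conditional on being high in asp1-D333A. snR98 had 0.609, 0.499 and 0.379 CPM in the aps1 deletion, 4.01, 3.54 and 3.79 CPM in asp1-D333A, and 0.223, 0.510 and 0.520 CPM in WT, a log2 fold change of 3.14 in asp1-D333A (SE 0.29, adjusted p = 1.4e-06). snR3, whose budding yeast namesake guides pseudouridylation of large-subunit rRNA, had 0.406, 0.111 and 0.162 CPM in the aps1 deletion, 1.32, 1.77 and 1.58 CPM in asp1-D333A, and 0.279, 0.051 and 0.156 CPM in WT. Its log2 fold change in asp1-D333A was 3.24 (SE 0.48, adjusted p = 7e-05). For both, the asp1-D333A libraries lay above the other 6, and the aps1 deletion overlapped WT.

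snR36 shares its name with a budding yeast guide of pseudouridylation in small-subunit rRNA. It had 0.457, 0.721 and 0.542 CPM in the aps1 deletion, 5.46, 6.63 and 5.29 CPM in asp1-D333A, and 0.948, 0.765 and 0.832 CPM in WT. The 3 groups did not overlap, with the aps1 deletion lowest. The rise in asp1-D333A was 2.77 on the log2 scale (SE 0.22, adjusted p = 4.4e-07), and the value of -0.56 in the aps1 deletion was not called (SE 0.29, adjusted p = 0.22). Set directly against asp1-D333A, the aps1 deletion had a log2 value of -3.33 (SE 0.24, adjusted p = 7.2e-08), the largest difference between the mutants among the 32.

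The box H/ACA snoRNA snR92 had 1.27, 0.610 and 0.975 CPM in the aps1 deletion, 6.56, 6.02 and 3.79 CPM in asp1-D333A, and 0.669, 0.970 and 0.624 CPM in WT, with a log2 fold change of 2.84 in asp1-D333A (SE 0.31, adjusted p = 4.5e-06). snR91 had 1.93, 1.72 and 2.11 CPM in the aps1 deletion, 7.65, 7.29 and 6.43 CPM in asp1-D333A, and 1.23, 1.02 and 1.30 CPM in WT. Its 3 groups did not overlap, and WT was the lowest. The log2 fold change of snR91 was 2.58 in asp1-D333A (SE 0.19, adjusted p = 2e-07) and 0.70 in the aps1 deletion (SE 0.21, adjusted p = 0.038). This second call did not survive the removal of any single library other than asp1-D333A replicate 3 (8 of 9 refits), nor total counts only, a fit of that pair alone or DESeq2.

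The abundant box H/ACA snoRNA snR90 had 7.92, 10.1 and 8.02 CPM in the aps1 deletion, 21.4, 24.2 and 16.3 CPM in asp1-D333A, and 7.20, 6.74 and 8.43 CPM in WT. It rose in asp1-D333A by 1.47 on the log2 scale (SE 0.16, adjusted p = 4.7e-06), while the aps1 deletion overlapped WT. The other box H/ACA snoRNAs called higher in asp1-D333A were snR33 (2.08), snR93 (2.07), snR42 (1.69), sno20 (1.46), snR94 (1.20) and snR95 (0.70), in log2 fold change. snoR02, of neither class by the letters searched, was also called higher, at 1.97.

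Among the CTGA-end snoRNAs, the fitted values were largest in snoR69, snoR47, snoR39b and snoR54. The first 2 of these passed the filter only through the asp1-D333A libraries, so their tests are conditional on being high there. snoR39b, in an intron of rpl701, a ribosomal protein gene, had 1.98, 2.05 and 1.57 CPM in the aps1 deletion, 11.2, 13.4 and 5.68 CPM in asp1-D333A, and 1.84, 1.38 and 1.56 CPM in WT. All asp1-D333A libraries were above the other 6, but replicate 3 was far below its fellows. The log2 fold change in asp1-D333A was 2.66 (SE 0.29, adjusted p = 5.2e-06), and 2.95 without that library. snoR69 had 0.457, 0.277 and 0.433 CPM in the aps1 deletion, 2.59, 1.94 and 1.14 CPM in asp1-D333A, and 0.223, 0.306 and 0.260 CPM in WT, a log2 fold change of 2.80 in asp1-D333A (SE 0.40, adjusted p = 5.2e-05), and 3.07 without replicate 3. The intron snoRNA snoR47 had 0.660, 0.277 and 0.325 CPM in the aps1 deletion, 1.73, 2.06 and 1.10 CPM in asp1-D333A, and 0.279, 0.255 and 0.208 CPM in WT, a log2 fold change of 2.69 in asp1-D333A. In both, the asp1-D333A libraries lay above the other 6. snoR54, also in an intron, had 0.711, 0.555 and 1.08 CPM in the aps1 deletion, 3.23, 2.97 and 1.93 CPM in asp1-D333A, and 0.390, 0.102 and 0.832 CPM in WT, a log2 fold change of 2.60. sno52 had 2.79, 2.77 and 2.82 CPM in the aps1 deletion, 6.97, 7.58 and 6.23 CPM in asp1-D333A, and 4.13, 3.01 and 2.13 CPM in WT. For these 2 as well, asp1-D333A did not overlap WT, while the aps1 deletion did. The further CTGA-end snoRNAs called higher were snoR56 (1.67), snoR38 (1.58), snoZ16 (1.38), snoZ15 (1.20), sno52 (1.17), snr79 (1.03) and snoR58 (0.87). snoU24b had a log2 fold change of 1.04 in asp1-D333A that was not called (SE 0.57, adjusted p = 0.13).

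**Figure D3:**
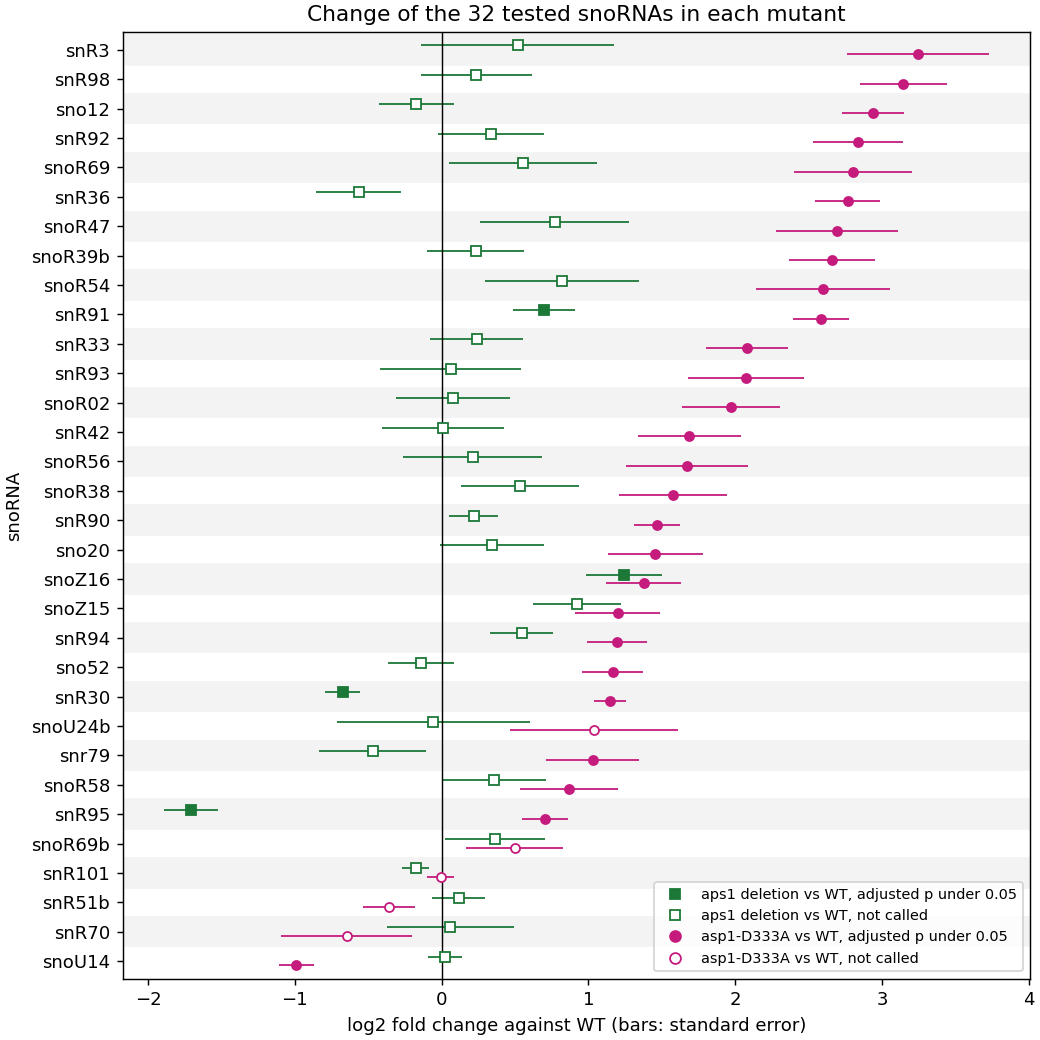
Log2 fold change against WT (horizontal axis; bars are SE) of each of the 32 tested snoRNAs in the aps1 deletion (squares) and asp1-D333A (circles), with filled symbols for an adjusted p under 0.05. In asp1-D333A the values run between -0.99 for snoU14 and 3.24 for snR3, and in the aps1 deletion only snR91 and snoZ16 (higher) and snR30 and snR95 (lower) are filled.

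Several snoRNAs did not follow the others in asp1-D333A. snoU14, the counterpart of U14, a box C/D snoRNA that in budding yeast is needed for the cleavages that release small-subunit rRNA, was the only tested snoRNA called lower there. It had 16.6, 18.9 and 15.9 CPM in the aps1 deletion, 8.15, 9.43 and 7.89 CPM in asp1-D333A, and 16.7, 15.5 and 18.4 CPM in WT. The asp1-D333A libraries lay below the other 6, which overlapped. The log2 fold change was -0.99 in asp1-D333A (SE 0.12, adjusted p = 1e-05) and 0.02 in the aps1 deletion (SE 0.11, adjusted p = 0.91). Over all alternative fits the asp1-D333A value ran between -1.07 and -0.82 and stayed called.

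snR101, the box H/ACA snoRNA with the highest level in WT, had 19.2, 19.3 and 20.4 CPM in the aps1 deletion, 20.9, 21.9 and 23.4 CPM in asp1-D333A, and 22.5, 23.0 and 21.0 CPM in WT. asp1-D333A and WT overlapped, and the aps1 deletion libraries were the 3 lowest. The log2 fold change was -0.01 in asp1-D333A (SE 0.09, adjusted p = 0.96) and -0.18 in the aps1 deletion (SE 0.09, adjusted p = 0.21). Its sign in asp1-D333A depended on the scaling, at 0.16 with upper-quartile scaling and 0.13 with total counts only.

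snR41, snR70 and snR51b share the names of budding yeast box C/D guides of ribose methylation and lie next to each other on 1 strand. None of the 3 was called higher in asp1-D333A. snR51b had 3.35, 4.44 and 3.68 CPM in the aps1 deletion, 2.64, 2.88 and 2.72 CPM in asp1-D333A, and 3.46, 3.32 and 3.80 CPM in WT. The asp1-D333A libraries were the 3 lowest. Its log2 fold change was -0.36 in asp1-D333A against WT (SE 0.18, adjusted p = 0.10) and 0.47 in the aps1 deletion against asp1-D333A (SE 0.18, adjusted p = 0.03), a call that was lost with upper-quartile scaling, total counts only and DESeq2 and on removal of aps1 deletion replicate 2 or 3 or of any asp1-D333A library. snR70 had 0.964, 1.33 and 1.19 CPM in the aps1 deletion, 1.09, 0.865 and 0.197 CPM in asp1-D333A, and 1.28, 1.22 and 0.832 CPM in WT, and its log2 fold change in asp1-D333A of -0.65 was not called (SE 0.45, adjusted p = 0.22). Without asp1-D333A replicate 3 it was -0.19. snR41 did not pass the filter. The CTGA-end snoRNA snoR69b had 1.27, 1.28 and 1.14 CPM in the aps1 deletion, 1.32, 1.90 and 0.829 CPM in asp1-D333A, and 0.837, 0.817 and 1.20 CPM in WT, where asp1-D333A overlapped WT. At 0.50 (SE 0.33, adjusted p = 0.21) it was not called in asp1-D333A, but was called without asp1-D333A replicate 3, at 0.76 (adjusted p = 0.046).

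Spread among the snoRNAs was wide in asp1-D333A: 15 of the 32 tested were more than 1 log2 unit from the median change. Only snR95 and snoZ16 were so far from it in the aps1 deletion against WT. The 4 snoRNAs with the highest mean level over the 9 libraries (snR101, snR30, snoU14 and snR90) held between 57.3% and 60.6% of the snoRNA counts in the aps1 deletion libraries, between 39.6% and 45.5% in asp1-D333A and between 61.0% and 63.6% in WT. Per length, the median over the 37 was 8.09 CPM per kilobase in the aps1 deletion, 28.3 in asp1-D333A and 7.83 in WT. The highest levels per length in WT were those of snoU14, at 150 CPM per kilobase, snR101, at 81.2, and snR51b, at 42.0. In asp1-D333A snoR39b was the highest, at 129 CPM per kilobase, followed by snR101 at 80.8, snR30 at 76.5, snoU14 at 75.8, sno52 at 72.9 and sno12 at 70.5. The place of snoR39b rests on replicates 1 and 2, where it averaged 158 CPM per kilobase; in replicate 3 it had 72.8, below snR101 at 85.8 and snR30 at 75.6.

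In the aps1 deletion, 2 of the 32 tested snoRNAs were called higher than WT and 2 lower, where 6.73% of all features were called higher and 9.83% lower, so the shares called lie near the background. Of these, 1 was at least 2-fold higher and 1 at least 2-fold lower, against 0.439% and 3.06% of all features. With all 37 tested in the fit of features with a sum of 20 counts, the counts were again 2 and 2, against 6.50% and 9.44%. The median log2 fold change of the 32 was 0.23, and that of all features was -0.01. Of the 32, 24 had a value above 0 and 8 below, while the summed CPM of the 37 was slightly below WT. Of the 37, the aps1 deletion libraries lay above WT without overlap for 4, against 19.5% of all features, and below for 5, against 19.7%.

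snR95, a box H/ACA snoRNA, was the member lowest in the aps1 deletion relative to WT. It had 1.37, 1.61 and 1.62 CPM in the aps1 deletion, 8.10, 7.83 and 8.56 CPM in asp1-D333A, and 4.57, 5.97 and 4.47 CPM in WT. The 3 groups did not overlap, and the mutants lay on opposite sides of WT. The log2 fold change was -1.71 in the aps1 deletion (SE 0.18, adjusted p = 4.4e-05) and 0.70 in asp1-D333A (SE 0.16, adjusted p = 0.0016), and -2.41 between the aps1 deletion and asp1-D333A (SE 0.18, adjusted p = 1e-07). These calls held in every alternative fit.

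snR30, which in budding yeast is needed for processing of the small-subunit rRNA precursor, had the same order at a higher level. It had 6.90, 7.10 and 7.15 CPM in the aps1 deletion, 27.0, 23.2 and 24.7 CPM in asp1-D333A, and 11.2, 12.6 and 9.94 CPM in WT. The 3 groups did not overlap. Its log2 fold change was -0.67 in the aps1 deletion (SE 0.12, adjusted p = 0.0022) and 1.15 in asp1-D333A (SE 0.11, adjusted p = 1.7e-06).

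snoZ16, a CTGA-end snoRNA, was higher in both mutants. It had 1.78, 2.16 and 2.11 CPM in the aps1 deletion, 2.23, 2.60 and 1.81 CPM in asp1-D333A, and 1.00, 0.817 and 0.728 CPM in WT. The mutants overlapped each other and both lay above WT. The log2 fold change was 1.24 in the aps1 deletion (SE 0.26, adjusted p = 0.006) and 1.38 in asp1-D333A (SE 0.25, adjusted p = 0.00041), both against the same WT libraries, and -0.13 between the aps1 deletion and asp1-D333A (SE 0.23, adjusted p = 0.62).

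Set directly against asp1-D333A, the aps1 deletion had 23 of the 32 tested snoRNAs called lower and 2 called higher, where 34.9% of all features were called lower and 33.9% higher. Of the 23, 22 were at least 2-fold lower, against 11.4% of all features. The median log2 fold change was -1.59, and that of all features was -0.04. Of the 1087 other tested features with an SPNCRNA identifier, 646 were called lower and 84 higher, with a median of -0.77. The 2 called higher in the aps1 deletion were snoU14, at 1.01 (SE 0.12, adjusted p = 5.3e-06), and snR51b. Besides snR36, the largest falls were those of sno12 (-3.11), snR98 (-2.91), snR3 (-2.73) and snR92 (-2.50). Of the 7 snoRNAs that reached the cutoff in all libraries of asp1-D333A only, snR42 would have been tested without them and snR98 stood at the edge. The others, snR3 among them, were tested only because they were high there. The values of all but snR42 in this comparison are read as conditional on that. snR94 was called lower by a smaller log2 fold change of -0.65. snoZ16, snoZ15, snoR58, snoR69b, snoU24b, snR101 and snR70 were not called between the mutants. Without asp1-D333A replicate 3, 24 were called lower and 1 higher. In the fit of all features with a sum of 20 counts, 23 of the 37 were called lower and 2 higher, against 34.2% and 33.1%. The aps1 deletion libraries lay below all asp1-D333A libraries for 24 of the 37, against 36.2% of all features, and above them for 2, against 34.3%.

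The 8 snoRNAs in introns could be set beside the genes that hold them, which are transcribed on the same strand. Of the 7 host genes of tested snoRNAs, 2 were called higher in asp1-D333A, 3 lower and 2 not. Over all features 30.3% were called higher and 30.8% lower, so these few calls say nothing particular of the hosts. The log2 fold changes of the host genes ran between -0.91 and 0.59, with a median of -0.18. The snoRNAs inside these host genes had values between 0.87 and 2.69. Of these, snoR47 (2.69) and snoU24b passed the filter only through asp1-D333A, so their values are conditional on being high there. The 4 intron snoRNAs that reached the cutoff in all WT libraries had a median of 1.39. snoR38, at 1.58, lies in SPAC29A4.02c, which was called lower at -0.91 (SE 0.12, adjusted p = 3.1e-05). snoR54, at 2.60, lies in gua1, which encodes the enzyme IMP dehydrogenase of guanine nucleotide synthesis and was called lower at -0.42 (SE 0.07, adjusted p = 0.0003). rpl701, the host of snoR39b, averaged 3322 ± 160 CPM in the aps1 deletion, 3078 ± 189 CPM in asp1-D333A and 3333 ± 76.3 CPM in WT (SD, n = 3 each), with a log2 fold change of -0.11 in asp1-D333A that was not called (adjusted p = 0.24). snoZ15, at 1.20, lies in pfd1, the host with the largest rise, at 0.59 (SE 0.12, adjusted p = 0.00073).

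**Figure D4:**
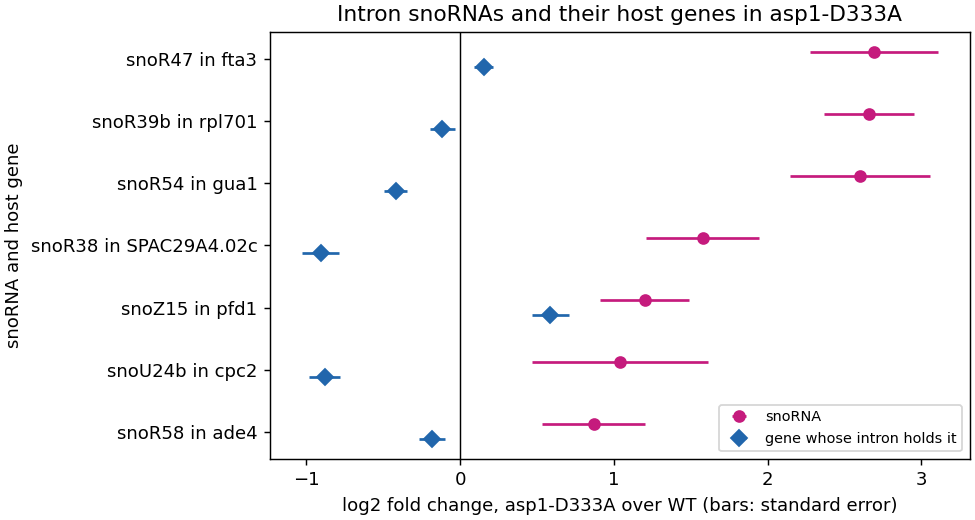
Log2 fold change of asp1-D333A over WT (horizontal axis; bars are SE) for the 7 tested snoRNAs inside introns (circles) and for the genes whose introns hold them (diamonds). Every snoRNA lies to the right of its host gene, though snoR47 and snoU24b were tested only because they were high in asp1-D333A. The hosts run between -0.91 for SPAC29A4.02c and 0.59 for pfd1.

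Of the 8 snoRNAs opposite a listed feature, the 7 that passed the filter were called higher in asp1-D333A. The other is snR96, opposite tim17, which was called lower at -2.21 in the fit of all features with a sum of 20 counts. Of the 8 features opposite them, 2 were called higher, 2 lower, 3 were not called and 1 was not tested. Over all features 30.3% were called higher in asp1-D333A and 30.8% lower. The library kit keeps the strand, but the strand setting used in counting is not given in the sources used here, so reads of the opposite feature may enter a snoRNA's count. The feature opposite sno20, SPBC1921.04c, had 0 counts in the aps1 deletion, 5 in asp1-D333A and 0 in WT. sno20 itself had 59 counts in the aps1 deletion, 161 in asp1-D333A and 47 in WT. snR36 lies opposite psd1, a phosphatidylserine decarboxylase gene, which was called lower in asp1-D333A at -0.89 (SE 0.07, adjusted p = 2.5e-07). The counts of snR36 were between 0.339% and 0.524% of those of psd1 in the aps1 deletion libraries, between 7.28% and 9.55% in asp1-D333A and between 0.593% and 0.700% in WT. snR90 lies opposite not3, a gene of the mRNA deadenylase complex, and had between 6.09% and 8.23% of its counts in the aps1 deletion, between 13.7% and 26.2% in asp1-D333A and between 5.81% and 7.24% in WT. Another 18 tested snoRNAs had neither a host nor an overlapping feature in the count table. Some of them overlap RefSeq features that the count table does not list. Of the 18, 13 were called higher in asp1-D333A and 1 lower, with a median of 1.52. Among the 18, snR3, snR93 and snoR69 passed the filter only through asp1-D333A, and snR98 stood at the edge of the filter without it. Their tests are conditional on being high there.

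Of the 25 tested snoRNAs outside introns, 14 had their nearest listed upstream feature on the same strand. In asp1-D333A 4 of those upstream features were called higher, 2 lower, 6 were not called and 2 were not tested. Over all features 30.3% were called higher and 30.8% lower, so the count of higher calls lies near that background. The gene upstream of snR92 is mag2, a DNA repair glycosylase gene, which was called higher at 1.94, and that upstream of snR90 is SPAC1B3.06c, called higher at 1.18. Also called higher were mpa1 (0.46), upstream of snR91, and rpl29 (0.43), upstream of snR93. Called lower were mrp1 (-0.67), upstream of snoZ16, and skb5 (-0.22), upstream of snR94. The 6 not called ran between -0.65 and 0.22, with rnp24, upstream of snoR69, at -0.08.

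The 5 snoRNAs that did not pass the filter were tested only in the fit of all features with a sum of 20 counts. snoU18, in an intron of ero11, was called higher in asp1-D333A there, at 2.41 on the log2 scale (SE 0.83, adjusted p = 0.023). It had 5 counts in the aps1 deletion, 22 in asp1-D333A and 3 in WT, so it met the minimum of 20 only through asp1-D333A, and its test is conditional on being high there. The box H/ACA snoRNA snR96 had 8, 1 and 0 counts in the aps1 deletion, 2, 7 and 2 counts in asp1-D333A, and 23, 8 and 10 counts in WT, and was called lower in asp1-D333A at -2.21 (SE 0.76, adjusted p = 0.023). Both mutants were below WT in snR96 in all libraries but for aps1 deletion replicate 1, which equalled the lowest WT library in counts. In the aps1 deletion the log2 value of snR96 in that fit was -2.15 (SE 0.80, adjusted p = 0.084), which was not called. snR40, snR41 and snR88 were not called in either mutant. Just inside the minimum of 20 counts were snR40 with 22, snR88 with 24 and snoU18 with 30, and just outside it snoR39a with 17, snr62 with 10, snoR54b with 6, snoU24 with 4 and snR5 with 1.

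The other 11 of the 16 snoRNAs under the minimum had 0 counts in all 9 libraries. Of these, 8 lie inside an exon of a listed noncoding RNA on the same strand. snoZ3, snoZ4, snoZ5, snoZ7 and snoZ8 lie in SPNCRNA.659, snoZ30 in SPNCRNA.1483, snoR68 in SPNCRNA.1650 and snR97 in SPNCRNA.617. How reads that match more than 1 feature were counted is not given in the sources used here, so a 0 for these 8 says nothing of their level. SPNCRNA.1650 was called higher in asp1-D333A, at 0.44 (adjusted p = 0.029), and lower in the aps1 deletion, at -0.70 (adjusted p = 0.015). SPNCRNA.659, SPNCRNA.1483 and SPNCRNA.617 were not called in asp1-D333A, at 0.41, 0.22 and 0.16, and SPNCRNA.617 was called lower in the aps1 deletion, at -0.45. The remaining 3 with 0 counts were sno16, snR10 and snR46.

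Genes of the snoRNA particles and of their processing were read out of the same fit, from a list of 25. In asp1-D333A 3 were called higher, 9 lower and 13 not, with a median log2 fold change of -0.07. Over all features 30.3% were called higher and 30.8% lower, so the count of lower calls lies near that background and says nothing particular of the list. Of the core proteins, fib1 (-0.85), the box C/D methyltransferase, and cbf5 (-0.37) and gar1 (-0.47), the box H/ACA pseudouridine synthase and its partner, were called lower. Of the processing genes, dis3 (-0.58), an exosome nuclease, mmi1 (-0.64), an RNA-binding protein of meiotic transcript removal, seb1 (-0.56), a termination factor, pab2 (-0.45), a nuclear poly(A)-binding protein, dhp1 (-0.44), a 5′ exonuclease of transcription termination, and pac1 (-0.23), an RNase III, were called lower. cid14 (0.39), a noncanonical poly(A) polymerase, shq1 (0.48), a box H/ACA assembly factor, and mtl1 (0.33), an RNA helicase, were called higher. rrp6, the nuclear exosome's own exonuclease, had 0.17 (SE 0.13, adjusted p = 0.29). In the aps1 deletion, fib1 (0.31) and seb1 (0.29) were called higher, nhp2 (-0.31), a box H/ACA protein, lower, and the other 22 were not called. These are values of poly(A)+ RNA of the same libraries, and their part in the snoRNA values was not tested.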

How the data were processed

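Poly(A)+ RNA was purified with hot acid phenol, made into libraries with the Illumina TruSeq stranded mRNA kit and sequenced as paired ends, per the labels' protocols. The authors deposited raw counts per feature; HISAT2 2.1.0, SAMtools, HTSeq 0.10.0, DESeq2 and the build ASM294v2 are named in the submitters' processing notes. The annotation, the strand setting and the handling of reads on overlapping features are not given in the sources used here. All 9 libraries entered 1 edgeR 4.0.16 fit (R 4.3.3, limma 3.58.1; TMM scaling, filterByExpr with a minimum count of 10, robust quasi-likelihood test, group means), with Benjamini-Hochberg adjustment over 6147 features; 839 were removed. SE is the size of the log2 fold change divided by the square root of F. The summed counts were tested by exact permutation over libraries with scipy 1.17.1. The scripts were tested on simulated counts. Alternatives were other scalings, filters, DESeq2 1.42.0, only the libraries of a pair, a replicate block and leaving out each library. Names, classes, neighbours and sequences were matched by identifier to RefSeq ASM294v3 (all 53 snoRNA identifiers matched), and no coordinates are printed, since that build is not the one in the notes. All 37 snoRNAs are accounted for. Those given with values per library are the 8 most abundant, the 5 largest called changes each way in each contrast, and those called against the median's sign or more than 1 log2 unit from it; others were named after their values were seen. The snoRNAs and gene lists were chosen with earlier results of these data known.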

Additional observations from a re-analysis of the deposited data

How the results depend on the processing

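The direction of the snoRNA medians and sums held in all alternatives, while small counts moved. In the aps1 deletion against WT, snoRNAs called higher were 1 with total counts only and with DESeq2, and 1 to 4 when 1 library was left out (4 without asp1-D333A replicate 3), against 2; those called lower were 2 to 3, the median log2 fold change 0.16 to 0.26 and the summed log2 ratio -0.12 to -0.09 when 1 library was left out. In asp1-D333A against WT, those called lower were 2 with no filter, with the filter on a sum of 20 and with DESeq2, and 1 to 2 with a library left out; those called higher were 25 to 27, the median 1.34 to 1.77 and the summed log2 ratio 1.08 to 1.20, and that ratio was 1.33 without the most abundant snoRNA, against 1.12. In the aps1 deletion against asp1-D333A, those called higher were 1 with upper-quartile scaling, total counts only and DESeq2, and 1 to 2 with a library left out; those called lower were 21 to 24. The median there was -1.80 with upper-quartile scaling, -1.77 with total counts only, -1.45 with no filter, -1.46 with the filter on a sum of 20, -1.45 with DESeq2 and -1.80 to -1.42 with a library left out, and the summed log2 ratio was -1.31 to -1.19 with a library left out and -1.40 without the most abundant snoRNA. Scaling moved the median of all features in asp1-D333A against WT to 0.18 (upper quartile) and 0.14 (total counts). Signs near 0 reversed. In the aps1 deletion against WT, snoU14 was at -0.019 with upper-quartile scaling, -0.033 with total counts only and -0.049 to 0.092 with a library left out, sno52 at -0.35 to 0.12 and sno12 at -0.40 to 0.078 with a library left out. In asp1-D333A against WT, snR101 was at 0.16 with upper-quartile scaling, 0.13 with total counts only and -0.053 to 0.041 with a library left out. Restricted to snoRNAs at the cutoff in all WT libraries, a choice made after the data were seen, the asp1-D333A medians were 1.77 for box H/ACA, against 2.08, and 0.76 for the CTGA end outside introns, against 1.03. The cause was not tested for any of these. The mutants share replicate numbers. The deviations of same-numbered libraries had correlations of 0.15, 0.06 and -0.13, and those of differently numbered ones ran between -0.23 and 0.22. With 3 libraries per strain this cannot exclude a pairing, so whether the numbers are one is unknown. A replicate block gave 2 higher, 23 lower and a median of -1.60 in the aps1 deletion against asp1-D333A. WT shares no number with either mutant. The 5 snoRNAs under the filter had too few counts for small differences to be detectable at this depth.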
